A study of Homo sapiens with 4 samples.

Results

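The 53 genes described here encode the proteins that license replication origins, unwind DNA, copy it at the fork, supply its nucleotides and rebuild chromatin behind it. They were chosen by symbol from a list made with earlier results of these data known, so the list as a whole was not tested. Each had exactly 1 array feature that the platform annotation gives to it alone, so all 53 were measured among 17687 genes tested. NB4-R4 cells derive from NB4, a line of acute promyelocytic leukaemia, and resist all-trans retinoic acid (ATRA), which makes the parental cells mature. The cells received MK-8776, an inhibitor of the checkpoint kinase CHK1, at 4 µM for 96 h, or the vehicle DMSO for the same 96 h, with 2 biological replicate arrays per group and no ATRA label on either group. All 4 cultures were the same resistant line in the same medium, RNA was taken from live cells, and the labels do not say how the cultures of a group were kept apart, so p-values measure only the spread between these arrays. Values are RMA expression on the log2 scale, and changes are log2 differences, MK-8776 minus DMSO, with the standard error (SE) and the adjusted p of a limma fit over all 17687 genes.

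Origins are licensed in G1, when the origin recognition complex (ORC), CDC6 and CDT1 load the MCM2 to MCM7 helicase ring onto DNA. Geminin (GMNN) blocks reloading later in the cycle. In S phase the kinase pair of CDC7 and DBF4, with MCM10, CDC45 and the GINS complex, turns the ring into a moving helicase, and polymerases, the PCNA clamp and its loader RFC copy both strands. CHK1 restrains the firing of further origins when forks stall, and many of these genes are textbook targets of E2F factors at the start of S phase.

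After MK-8776 the licensing factor gene CDT1 fell, and the other 52 genes did not pass the threshold of 0.05 in either direction. Over all genes 3.69% were called in either direction, 2.02% as fallen and 1.66% as risen, so 1 call of 53 is near the background share. The group mean was nevertheless lower in 44 of the 53, equal in 2 and higher in 7, against 49.2% of all genes with a lower mean. Both MK-8776 arrays lay below both DMSO arrays in 28 of the 53 and above them in 2, against 24.2% and 24.0% of all genes. At an unadjusted p under 0.05, 17 of the 53 were lower and 0 higher, against 10.2% and 8.61% of all genes. The median change was -0.435, against 0.005 over all genes, and the middle of the list, from the lower to the upper quartile, ran from -0.675 to -0.135, against -0.245 to 0.245. With limma's variance trend, which lets the expected spread depend on the level, 6 of the 53 fell and 0 rose, against 3.61% and 3.09% of all genes. Those 6 were CDT1, MCM7, RRM1, ORC1, RPA1 and PRIM1. An array of a whole culture cannot tell fewer cells in S phase from less RNA per cell.

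**Figure D1:**
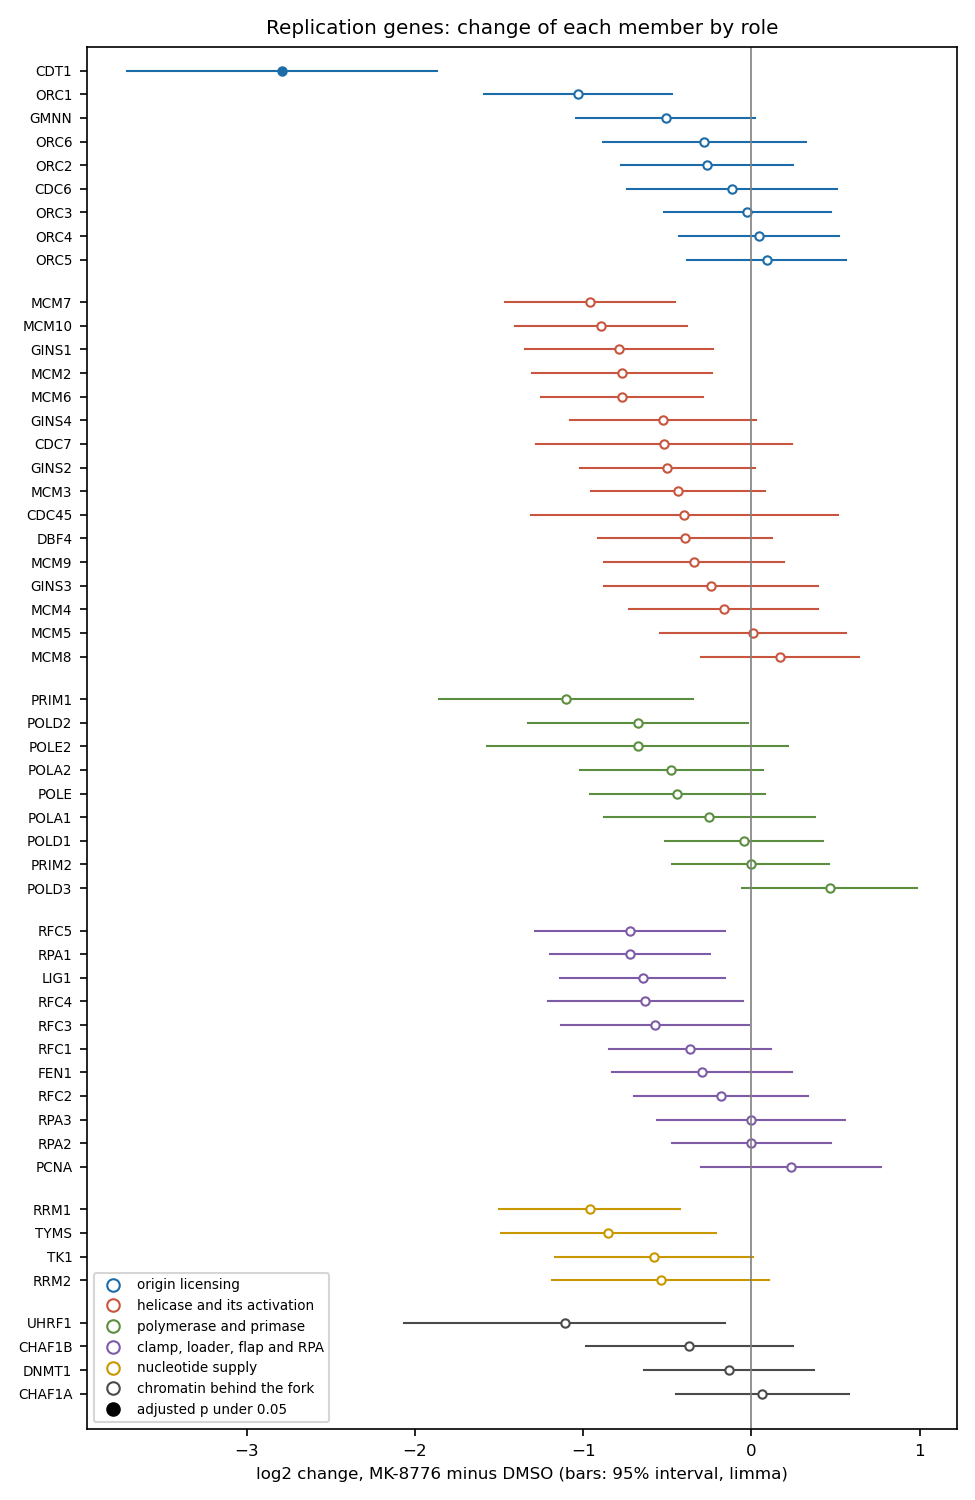
Log2 change (MK-8776 minus DMSO, horizontal axis) of each of the 53 genes, grouped and coloured by role, with 95% intervals from the limma fit. CDT1, filled, is the only gene past the adjusted threshold, at -2.79, and the other points run from -1.11 for UHRF1 to 0.465 for POLD3.

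The arrays of a group did not sit at one level. MK-8776 replicate 1 was below MK-8776 replicate 2 in 41 of the 53 genes, with a median difference of 0.36, against 48.7% of all genes with a median near zero. DMSO replicate 1 was below DMSO replicate 2 in 38 of the 53, with a median difference of 0.23, against 48.8% of all genes. Relative to each gene's mean over the 4 arrays, the median of the 53 was -0.418 and -0.05 on the MK-8776 arrays, against 0.117 and 0.282 on the DMSO arrays. Both treated medians were below both vehicle medians, and the genes shared the differences between replicates, so they are not independent witnesses of a shift. The median change was -0.24 without MK-8776 replicate 1, -0.63 without MK-8776 replicate 2, -0.49 without DMSO replicate 1 and -0.32 without DMSO replicate 2. Its size thus rests in part on MK-8776 replicate 1 and on DMSO replicate 2.

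**Figure D2:**
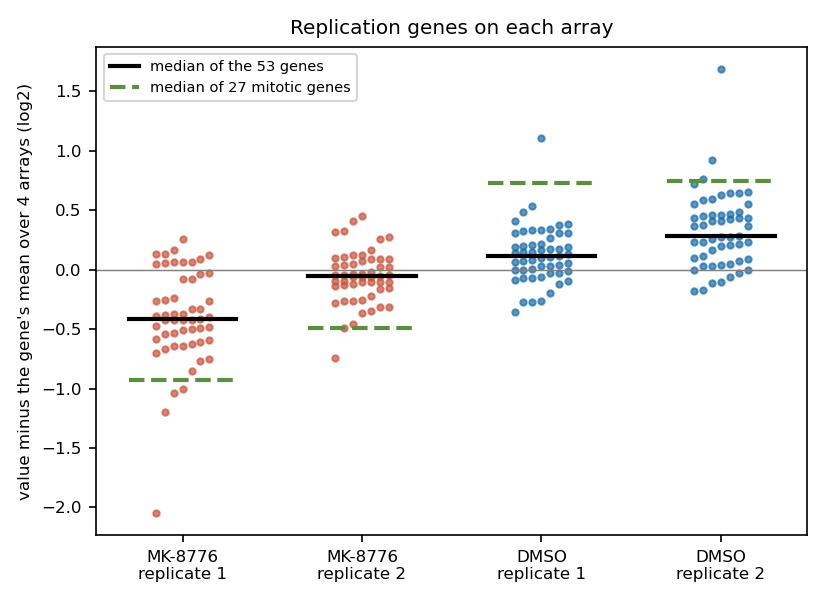
Each point is 1 of the 53 genes, as its value on an array minus its own mean over the 4 arrays (log2, vertical axis). Black lines are the medians of the 53 genes (-0.418 and -0.05 on the MK-8776 arrays, 0.117 and 0.282 on the DMSO arrays) and dashed green lines those of 27 mitotic genes.

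The promoters of 3 licensing genes are given. CDT1 is the one called gene, and ORC3 and CDC6 had the smallest absolute changes among the genes found to hold an E2F word. Sequences are those of RefSeq (GRCh38.p14), 300 bases each on the strand of the gene, 250 before the annotated start and 50 from it on. Capitals mark matches to the 4 E2F words searched, and lower case does not show that other forms of the site are absent. CDT1 (chr16:88803539-88803838, plus strand) holds TTTCCCGC on the opposite strand, 35 bases before the start. ORC3 (chr6:87589885-87590184, plus strand) holds the same word on the opposite strand, 12 bases before the start, and CDC6 (chr17:40287629-40287928, plus strand) holds TTTGGCGC on its own strand, 7 bases after the first base of the start.
CDT1: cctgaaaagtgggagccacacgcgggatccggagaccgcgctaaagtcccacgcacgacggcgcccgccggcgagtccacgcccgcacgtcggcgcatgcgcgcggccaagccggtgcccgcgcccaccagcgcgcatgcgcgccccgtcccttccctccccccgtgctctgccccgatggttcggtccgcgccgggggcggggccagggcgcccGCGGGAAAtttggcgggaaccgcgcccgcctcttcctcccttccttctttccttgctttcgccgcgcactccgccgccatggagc
ORC3: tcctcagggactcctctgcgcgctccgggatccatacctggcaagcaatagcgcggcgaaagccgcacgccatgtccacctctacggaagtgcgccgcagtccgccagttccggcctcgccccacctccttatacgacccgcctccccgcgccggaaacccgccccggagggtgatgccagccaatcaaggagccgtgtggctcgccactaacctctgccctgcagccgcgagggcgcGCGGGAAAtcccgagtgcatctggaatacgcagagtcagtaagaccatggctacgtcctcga
CDC6: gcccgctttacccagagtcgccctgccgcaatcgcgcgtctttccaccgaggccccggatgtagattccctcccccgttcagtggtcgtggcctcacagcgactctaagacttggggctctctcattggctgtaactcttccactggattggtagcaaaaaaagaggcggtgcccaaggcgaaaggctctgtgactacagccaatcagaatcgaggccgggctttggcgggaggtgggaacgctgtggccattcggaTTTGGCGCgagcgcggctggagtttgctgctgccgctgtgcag
The log2 change was -2.79 for CDT1, -0.025 for ORC3 and -0.115 for CDC6. The 3 were picked with these changes known, so nothing about E2F words and change is read from them.

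E2F words were frequent in the promoters of the 53 genes, and the motif known from mitotic genes was rare. Of the 53, 47 had at least 1 start in the promoter table, with 61 windows of 300 bases. MCM4, MCM5, GINS4, POLD3, RPA2 and RPA3 had no entry. An E2F word (TTTCCCGC, TTTCGCGC, TTTGCCGC or TTTGGCGC, either strand) stood in 24 of the 61 windows, 39.3%, against 4.03% of the 20090 windows of genes tested on the array and 3.31% of all 35116 windows. It stood in 9 of 18 windows of helicase genes, 4 of 10 of polymerase genes, 4 of 11 of licensing genes, 3 of 10 of clamp, loader, flap and RPA genes, 3 of 6 of chromatin genes and 1 of 6 of nucleotide supply genes. The cell cycle homology region, known from genes of mitosis, was searched as TTTGAA or TTCGAA on either strand and stood in 3 of the 61 windows, 4.92%, against 13.7% of the windows of genes tested. Those 3 belonged to MCM6, DBF4 and RRM1. Among 26 windows of mitotic genes the same words stood in 17, 65.4%, and E2F words in 3. CCAAT boxes, searched as CCAAT on either strand, stood in 34 of the 61 windows, 55.7%, against 34.7% of those of genes tested. They were more frequent still in the 26 mitotic windows, at 21, or 80.8%. In 1 of the 61 windows words of different motifs overlapped. The 23 genes with an E2F word had a median change of -0.51 and the 24 without one of -0.383, and the ranges overlapped, from -2.79 to 0.235 and from -1.10 to 0.09. Only the listed words were searched, so genes without an E2F word may hold other forms of the site. The matches are letters in a window and say nothing of binding.

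CDT1, whose product loads the helicase ring and is destroyed once S phase begins, measured 5.88 and 7.18 in the MK-8776 arrays, against 9.03 and 9.61 in the DMSO arrays. The groups did not overlap, and the 2 treated values lay further apart than the 2 vehicle values. Its mean was 6.53 ± 0.92 in MK-8776 and 9.32 ± 0.41 in DMSO (SD, n = 2 each), a change of -2.79 (SE 0.40, 95% interval -3.71 to -1.87, adjusted p = 0.0120, limma), or a level 6.92-fold higher in DMSO. CDT1 lies on chromosome 16 from 88803789 to 88809258 (GRCh38.p14). The adjusted p was 0.153 without MK-8776 replicate 1, 0.0454 without MK-8776 replicate 2, 0.236 without DMSO replicate 1 and 0.406 without DMSO replicate 2, with changes from -3.44 to -2.14 (limma). In those 4 fits the calls over all genes were also few, between 0 and 34 in both directions together. GMNN, which encodes the inhibitor of CDT1, measured 9.05 and 9.49 in MK-8776, against 9.87 and 9.69 in DMSO. Its change of -0.51 did not pass (95% interval -1.04 to 0.02, adjusted p = 0.284, limma), although the groups did not overlap.

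Among the ORC genes 0 of 6 passed, and the one known to vary most through the cell cycle, ORC1, had the lowest change. It measured 8.69 and 9.19 in MK-8776, against 9.84 and 10.10 in DMSO, with no overlap. Its change was -1.03 (SE 0.24, adjusted p = 0.0607, limma), and it passed with a variance trend at 0.0253. ORC2, ORC3, ORC4, ORC5 and ORC6, the subunits that complete the complex, had changes from -0.28 for ORC6 to 0.09 for ORC5, and their arrays overlapped or met between groups. The 95% interval of ORC1, -1.59 to -0.47, overlapped those of ORC2, -0.78 to 0.25, and ORC6, -0.88 to 0.32, and no test of the difference between subunits was made. ORC3, at 13.13 and 12.84 in MK-8776 against 12.93 and 13.09 in DMSO, had the smallest change of the licensing genes, -0.025 with an interval from -0.52 to 0.47. CDC6, the partner of CDT1 in loading, had 8.28 and 8.94 in MK-8776 against 8.55 and 8.90 in DMSO. Its change was -0.115 with an interval from -0.74 to 0.51, so a fall of the size seen for CDT1 lay outside it. Of the 9 licensing genes 1 fell and 8 did not pass, with a median of -0.265.

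The helicase genes had a median change of -0.468, with 14 of 16 lower, against 49.2% of all genes, and 0 of 16 passed. Within the ring itself, MCM7, MCM6 and MCM2 were lower by more than MCM3, MCM4 and MCM5. MCM7 measured 11.90 and 12.23 in MK-8776, against 12.95 and 13.10 in DMSO, a change of -0.96 (SE 0.22, adjusted p = 0.0545, limma) that passed with a variance trend at 0.0066. MCM2 and MCM6 both had a change of -0.77 (adjusted p = 0.122 and 0.0925, limma), and both MK-8776 arrays were below both DMSO arrays for each. MCM3 was at -0.435, MCM4 at -0.165 and MCM5 at 0.01, and the arrays of the last 2 overlapped between groups. MCM5, at 9.79 and 9.68 in MK-8776 against 9.46 and 9.99 in DMSO, had the smallest change of the 16. The 95% intervals of MCM7 and MCM5, -1.46 to -0.46 and -0.54 to 0.56, overlapped, and no test of the difference between subunits was made.

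MCM10, which helps to start the helicase, was the dimmest of the 16 and measured 4.43 and 4.79 in MK-8776, against 5.59 and 5.42 in DMSO. Its change of -0.895 did not pass (SE 0.22, adjusted p = 0.0714, limma), and the groups did not overlap. The GINS genes, whose products hold the helicase together, had changes of -0.785 for GINS1, -0.50 for GINS2, -0.24 for GINS3 and -0.525 for GINS4. CDC45, the remaining part of the moving helicase, varied most of the 16 between the treated arrays, at 6.52 and 7.82 in MK-8776 against 7.31 and 7.83 in DMSO. Its change of -0.40 thus had a wide interval, -1.31 to 0.51. CDC7 and its activator DBF4 were at -0.52 and -0.395, and MCM8 and MCM9, which act in repair, at 0.17 and -0.34.

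The primase and polymerase genes had a median change of -0.44, with 8 of 9 lower, against 49.2% of all genes, and 0 of 9 passed. PRIM1, the catalytic subunit of primase, measured 9.69 and 10.66 in MK-8776, against 11.06 and 11.49 in DMSO. Its change was -1.10 (SE 0.33, adjusted p = 0.117, limma), and it passed with a variance trend at 0.0417. PRIM2, the partner subunit, measured 10.41 and 10.56 in MK-8776, against 10.52 and 10.46 in DMSO, and its change of -0.005 had an interval from -0.47 to 0.46. The 2 subunits of primase thus gave the largest and the smallest change of this role. The subunits of polymerase alpha, POLA1 and POLA2, were at -0.25 and -0.475, and those of polymerase epsilon, POLE and POLE2, at -0.44 and -0.675. Among the genes of polymerase delta, POLD2 was at -0.675 (adjusted p = 0.252, limma) and the catalytic POLD1, dim at about 5 log2 units, at -0.045. POLD3, an accessory subunit, was the highest of the 53, with 9.60 and 9.96 in MK-8776 against 9.19 and 9.44 in DMSO. Its groups did not overlap, but its change of 0.465 did not pass (interval -0.06 to 0.99, adjusted p = 0.324, limma).

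Neither PCNA nor any gene of RFC, the loader that puts it on DNA, passed the threshold. PCNA measured 12.72 and 13.11 in MK-8776, against 12.53 and 12.83 in DMSO, a change of 0.235 with overlapping arrays (interval -0.30 to 0.77, adjusted p = 0.664, limma). All 5 RFC genes had a lower mean in MK-8776, against 49.2% of all genes. Their changes ran from -0.72 for RFC5 to -0.18 for RFC2, with a median of -0.575. In all 5 replicate 1 also lay below replicate 2 in both groups, so they are not independent witnesses of a fall. The difference between PCNA and these genes was not tested. RFC5 measured 10.01 and 10.45 in MK-8776, against 10.76 and 11.14 in DMSO (adjusted p = 0.161, limma). Among the subunits of RPA, which coats single-stranded DNA, RPA1 measured 10.84 and 10.64 in MK-8776, against 11.41 and 11.51 in DMSO. Its change of -0.72 missed the threshold (SE 0.21, adjusted p = 0.107, limma) and passed with a variance trend at 0.0385. RPA2, at 8.81 and 8.88 in MK-8776 against 8.75 and 8.94 in DMSO, and RPA3, at 7.63 and 7.50 against 7.29 and 7.84, had equal means in both groups. Their intervals were -0.47 to 0.47 and -0.56 to 0.56. LIG1, which seals Okazaki fragments, was at -0.645 with no overlap, and FEN1, which trims their flaps, at -0.295.

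**Figure D3:**
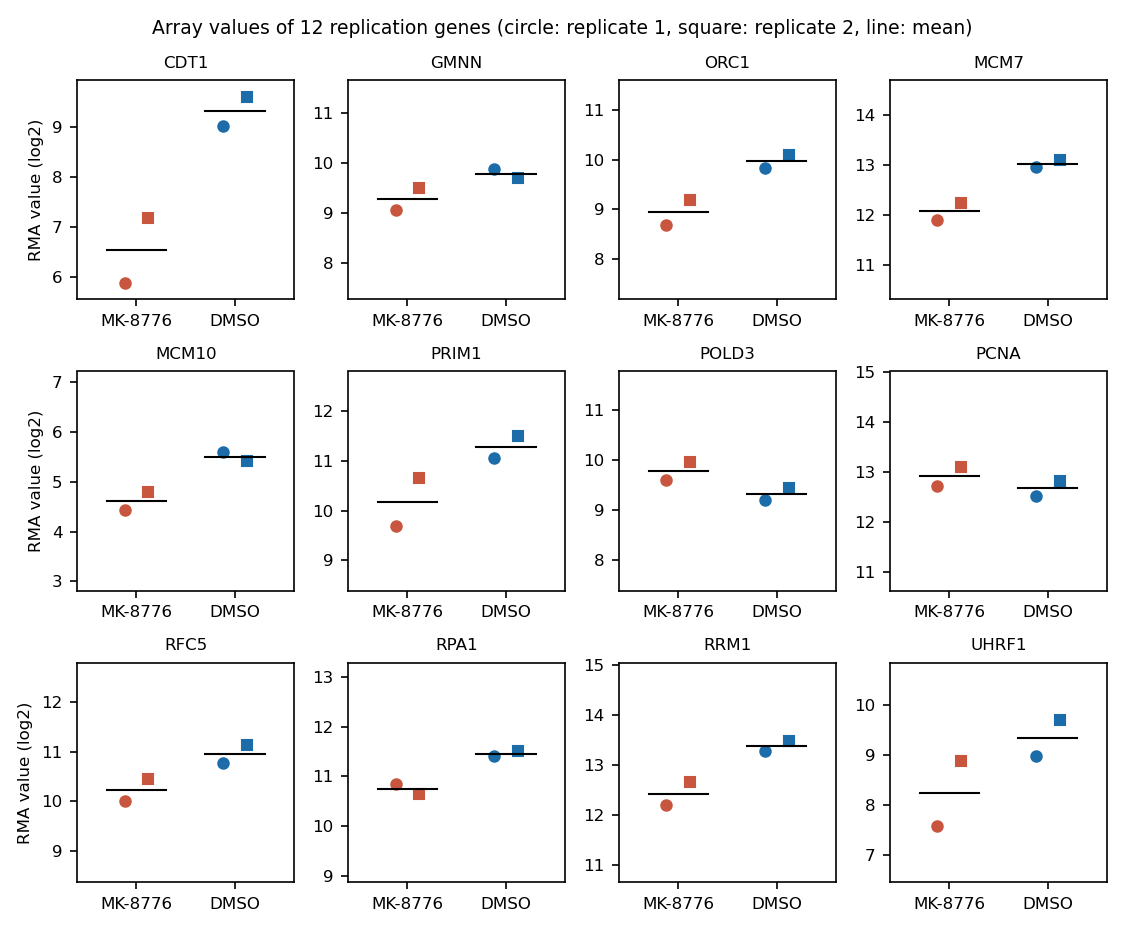
RMA values (log2) of 12 of the 53 genes on each array, MK-8776 in red and DMSO in blue, with the mean as a line and the same span on every vertical axis. The MK-8776 points lie below the DMSO points for CDT1, ORC1, MCM7, MCM10, RPA1 and RRM1 among others, above them for POLD3, and among them for PCNA. The 12 were picked by hand, so they do not show how often the groups separated. Among all 53, both MK-8776 arrays lay below both DMSO arrays in 28, against 24.2% of all genes.

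The nucleotide supply genes were lower as a group of 4 with no exception, with a median change of -0.715, and 0 of 4 passed. RRM1, the large subunit of ribonucleotide reductase, measured 12.20 and 12.65 in MK-8776, against 13.28 and 13.49 in DMSO, a change of -0.96 (SE 0.23, adjusted p = 0.0678, limma) that passed with a variance trend at 0.00844. TYMS, which makes thymidylate, measured 10.90 and 11.55 in MK-8776, against 11.85 and 12.30 in DMSO, a change of -0.85 (adjusted p = 0.147, limma). RRM2, the small subunit, measured 10.30 and 11.04 in MK-8776 against 11.05 and 11.37 in DMSO, and was at -0.54. The thymidine salvage kinase gene TK1 was at -0.58. In all 4 genes both MK-8776 arrays lay below both DMSO arrays, against 24.2% of all genes. In all 4 replicate 1 also lay below replicate 2 in both groups, so the 4 are not independent witnesses of a fall. The number of genes is small, so a median over 4 is not set above the other roles.

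The genes that restore chromatin and its methylation gave 0 calls of 4, with a median of -0.253. UHRF1, which guides the methyltransferase to newly copied DNA, measured 7.59 and 8.88 in MK-8776, against 8.98 and 9.71 in DMSO. Its change of -1.11 was the second of the 53 in size but varied much between replicates (SE 0.42, interval -2.06 to -0.16, adjusted p = 0.198, limma). DNMT1, the maintenance methyltransferase, was at -0.135, with 9.88 and 10.22 in MK-8776 against 10.26 and 10.11 in DMSO. The subunits of the chromatin assembly factor, CHAF1A and CHAF1B, were at 0.065 and -0.37, with overlapping arrays. CHAF1A, at 7.57 and 7.30 in MK-8776 against 7.52 and 7.22 in DMSO, had the smallest change of this role.

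Over the roles the median change was thus lowest for nucleotide supply (-0.715), followed by helicase (-0.468), polymerase and primase (-0.44), clamp, loader, flap and RPA (-0.365), licensing (-0.265) and chromatin (-0.253). The spread of a role's median between arrays of a group was 0.145 to 0.347 (pooled SD), so neighbours in this order differed by less than the replicates did, with the step from nucleotide supply to helicase also inside the spread of the first. The one called gene belongs to the licensing role, whose other members lay between -0.28 and 0.09 apart from ORC1 and GMNN.

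**Figure D4:**
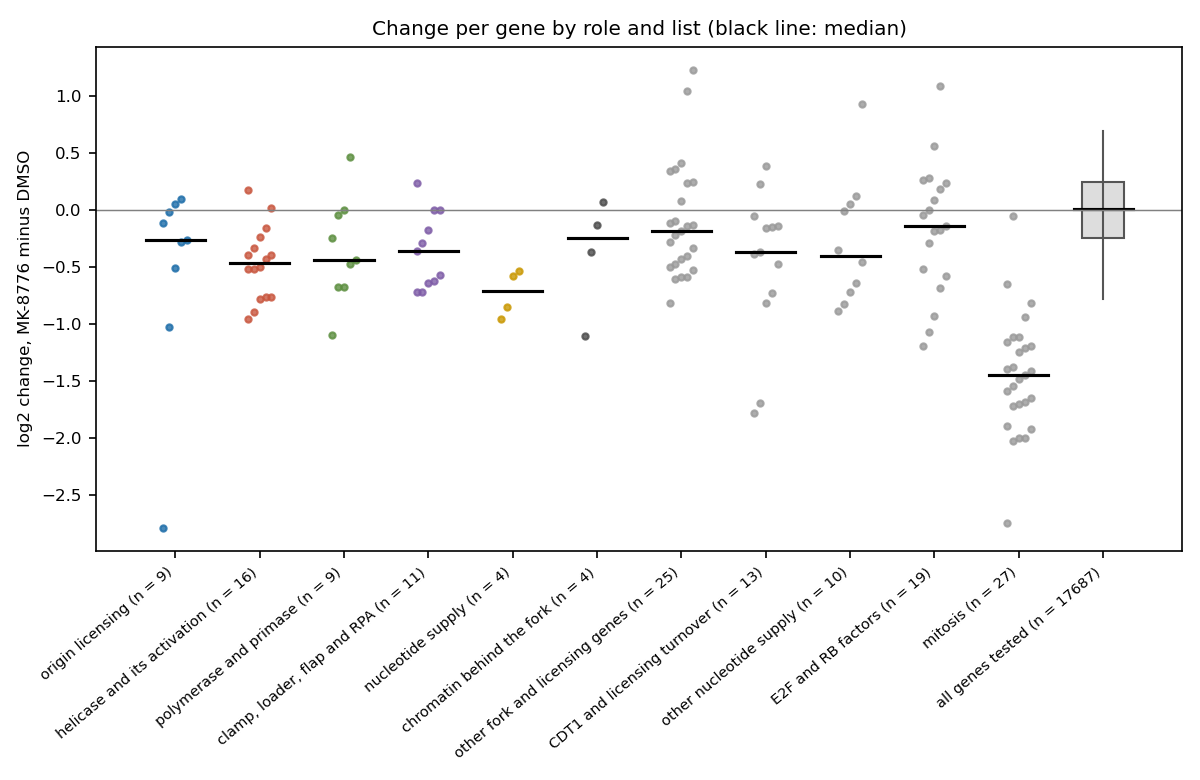
Log2 change (MK-8776 minus DMSO) per gene for the 6 roles (coloured), for related lists (grey) and for all 17687 genes (box from the lower to the upper quartile, line from percentile 5 to 95). Black lines are medians, -0.715 for nucleotide supply and -0.265 for licensing, against -1.45 for mitosis and 0.005 for all genes.

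Other genes of the fork did not move as one. Of 25 further fork and licensing genes measured, 2 rose, 0 fell and 23 did not pass, with a median of -0.19. ASF1A, a histone chaperone gene, measured 12.10 and 11.55 in MK-8776 against 10.63 and 10.57 in DMSO, a rise of 1.225 (SE 0.24, adjusted p = 0.0341, limma). CLSPN, which encodes claspin, a fork protein that lets ATR activate CHK1, measured 8.27 and 8.39 in MK-8776 against 7.23 and 7.35 in DMSO, a rise of 1.04 (adjusted p = 0.0338, limma). Both calls were absent with the replicate number as a block, where 0 of the 25 passed, and without any 1 of the arrays. Of 10 further nucleotide genes 1 rose and 9 did not pass. SAMHD1, which breaks down deoxynucleotides, measured 10.96 and 10.88 in MK-8776 against 10.05 and 9.93 in DMSO, a rise of 0.93 (adjusted p = 0.0470, limma) that did not pass when all 21448 features were tested, with the block, or without any 1 of the arrays. With a variance trend SAMHD1 still passed, and CMPK1, a nucleotide kinase gene, and DUT, whose product breaks down dUTP, fell by 0.885 and 0.825 (adjusted p = 0.0140 and 0.0392, limma). As deposited their adjusted p was 0.0674 and 0.141 (limma).

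Of 13 genes of CDT1 and licensing turnover, 2 fell, 0 rose and 11 did not pass. CCNF, the F-box protein cyclin F that targets CDC6 for destruction, measured 5.16 and 5.23 in MK-8776 against 6.76 and 7.03 in DMSO, a change of -1.70 (SE 0.21, adjusted p = 0.00739, limma). CCNA2, the S and G2 phase cyclin A, measured 8.69 and 9.50 in MK-8776 against 10.85 and 10.90 in DMSO, a change of -1.78 (adjusted p = 0.0168, limma). SKP2 and DTL, substrate receptors that mark CDT1 for destruction, were at -0.815 and -0.39 and did not pass. Of 19 E2F and RB factor genes, 1 rose, 2 fell and 16 did not pass. E2F3, an activator of S phase genes, rose by 1.085, with 9.10 and 8.96 in MK-8776 against 8.06 and 7.83 in DMSO (adjusted p = 0.0324, limma). E2F5, a repressor, and LIN9, a subunit of the MuvB core, fell by 1.195 and 1.07 (adjusted p = 0.0400 and 0.0332, limma). Those 3 calls were absent with the replicate block, and the calls of both lists were absent without any 1 of the arrays. E2F1 was at -0.525 and did not pass (adjusted p = 0.340, limma).

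Mitotic genes, which are transcribed later in the cycle, give a scale for these values. Falls were called in 21 of 27 and rises in 0, with a median of -1.45 and the largest changes at -2.745 for KIF20A, -2.03 for NEK2 and -2.00 for both DLGAP5 and CCNB2. Falls numbered 13 with the replicate block and between 0 and 1 when 1 array was left out. The 2 lists were set side by side without a test of their difference. Mitotic medians relative to the 4-array mean were -0.927 and -0.492 on the MK-8776 arrays, against 0.732 and 0.748 on the DMSO arrays.

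Of the promyelocyte markers, 7 of 9 were measured. MPO, the defining granule enzyme gene, read 14.81 and 15.36 in MK-8776 against 16.09 and 16.27 in DMSO, far above the upper quartile of all values (9.40) in both groups. Both MK-8776 arrays were below both DMSO arrays, and its change of -1.095 did not pass (adjusted p = 0.0514, limma) but passed with a variance trend at 0.00258. PRTN3 and CTSG, 2 further granule protease genes, fell by 2.005 and 2.2 (adjusted p = 0.0193 and 0.00516, limma). The other 4, AZU1, CD38, SPI1 and CEBPA, had arrays that overlapped between groups. SPI1 and CD38 had higher means in MK-8776, at 0.275 and 0.1, while AZU1 was at -1.2 and CEBPA at -0.26. The median change of the 7 was -1.095, with 2 falls, 0 rises and 5 that did not pass. ELANE and CD33 were not analysed here. Of 15 measured markers of lymphoid, erythroid, platelet, stromal and epithelial cells, NKG7, PPBP and KRT18 rose and CD3E fell, and their mean level was 7.01 and 7.05 on the MK-8776 arrays, against 6.82 and 6.73 on the DMSO arrays. Several of them, such as CD79A and NKG7, were not dim in either group. The part of these markers in the results on replication genes was not tested.

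The correlation across genes was 0.993 between arrays of each group and 0.981 to 0.989 between groups. The 53 genes were well measured for level, with 26 above the upper quartile of all values in both groups, 2 under the median (6.01) and 0 under the lower quartile (3.99). Their SE ran from 0.205 to 0.416, and 27 of the 53 had a 95% interval that stayed within 1 log2 unit of zero, so that a 2-fold change lay outside it. For the other 26 the interval reached a 2-fold fall or, for CDT1, lay wholly beyond it. Where such a gene was not called, the missing call does not show that it kept its level.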

How the data were processed

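Per the submitters' processing notes the authors made the deposited log2 values with RMA and build hg38, with settings not given in the sources used here. The log2 scale was inferred from the range of the values (2.16 to 18.54). Precision is limited by the number of arrays, and changes are relative to other genes. Of 21448 features 17709 carried a single symbol, and the brightest was kept per gene (17687 genes). The 53 genes had 1 feature each, so no other feature could be tried. limma 3.58.1 (R 4.3.3), with lmFit, eBayes, two-sided p and Benjamini-Hochberg adjustment over all genes at 0.05, used 2 residual and 6.30 prior degrees of freedom. It was run on simulated data with independent noise per gene and array, which does not cover differences that genes share between replicates. Exact permutation of 2 against 2 arrays cannot go below p = 0.333. Array values are given for genes past the threshold with or without a variance trend, for the largest and smallest changes of each role and for a few partners. Related lists show up to 4 called genes, and SKP2, DTL and E2F1 were named after their values were seen. Genes, roles and lists were chosen with earlier results of these data known, so lists have counts and medians but no test. Alternatives were quantile normalization, median centring, a filter at the median level, a variance trend (also robust), a replicate block, all features, and leaving out each array.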

Additional observations from a re-analysis of the deposited data

How the results depend on the processing

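The fall of CDT1 passed the threshold in the 7 fits that kept all arrays and changed 1 other choice, and 0 of the 53 genes rose in any of the 11 alternatives. The count of genes that fell was 1 as deposited, 4 among features above the median level, 6 with a variance trend and 6 with its robust form. Over all genes the falls numbered 358, 538, 638 and 632 in the same fits, so calls became more frequent in general. MCM10 and POLD1 lay under the filter and were not in that fit. The genes gained were ORC1, MCM7 and RRM1 at the filter, and PRIM1 and RPA1 besides with the trend. Without 1 array the median change of a role ran from -0.445 to -0.05 for licensing, -0.6625 to -0.37 for helicase, -0.63 to -0.13 for polymerase and primase, -0.53 to -0.265 for clamp, loader, flap and RPA, -1.043 to -0.4875 for nucleotide supply and -0.4925 to -0.065 for chromatin. Some genes changed sign, with main changes from -0.40 for CDC45 to 0.065 for CHAF1A. PRIM2 was 0.031 after quantile normalization and 0.045 after median centring, where ORC3 was 0.025 and POLD1 0.005. With 1 array left out ORC3 ran from -0.17 to 0.12, ORC4 from -0.045 to 0.135, CDC6 from -0.445 to 0.215, MCM4 from -0.41 to 0.08, MCM5 from -0.255 to 0.275, CDC45 from -1.05 to 0.25, GINS3 from -0.615 to 0.135, POLA1 from -0.63 to 0.13, PRIM2 from -0.08 to 0.07, POLD1 from -0.13 to 0.04, DNMT1 from -0.305 to 0.035 and CHAF1A from -0.085 to 0.215. None of these passed in any fit, and the cause was not tested. The replicate numbers are tied to no shared day or culture by the labels. With the replicate block 1 of the 53 fell (CDT1, adjusted p = 0.0271, limma). The calls over all genes were then 176 falls and 133 rises, against 358 and 294 as deposited. At an unadjusted p under 0.05 with the block, 21 of the 53 were lower and 1 higher, against 17 and 0 as deposited. Over all genes 1915 were lower and 1628 higher at that unadjusted threshold with the block, against 1808 and 1523 as deposited. The deviations of the replicates numbered 1 correlated at 0.139 over all genes and 0.439 over the 53.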
